A study of Mus musculus with 10 samples.

Results

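The genes of lymph node vessels described here are 10 of the 54987 genes in the deposited table, taken by their symbols. Glycam1, Madcam1, Chst4, Fut7 and Vcam1 belong to high endothelial venules and their addressins, and Lyve1, Prox1, Pdpn, Flt4 and Vegfc to lymphatic vessels. They were followed in RNA of the popliteal lymph node, the node behind the knee, at day 15. All mice were male BALB/c, 6 to 8 weeks old. The Control mice had a saline injection (3 libraries, numbered 15, 16 and 17). The AIA mice had 0.1 ml of complete Freund's adjuvant under the skin of the right hind paw, a model of arthritis (4 libraries, numbered 5, 10, 31 and 38). The Acu mice had the adjuvant together with acupuncture, given at the leg point ST36 (3 libraries, numbered 4, 6 and 28). A sham acupuncture group in the protocols was not analysed here. No label says that each library is its own mouse, so the p-values measure only the spread between these libraries, which may be technical.

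High endothelial venules are the postcapillary vessels through which blood lymphocytes enter a lymph node. Their lining cells display mucin-like proteins such as GlyCAM-1 and MAdCAM-1, whose sulphated and fucosylated sugars catch rolling lymphocytes. Integrins then hold the cell to VCAM-1, ICAM-1 or MAdCAM-1 before it crosses the wall. Lymphatic vessels bring lymph, antigen and migrating dendritic cells into the node and carry lymphocytes out. Their identity depends on the transcription factor Prox1, and their growth on the ligand VEGF-C and its receptor VEGFR-3, the product of Flt4.

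The libraries labelled Control 17 and Acu 4 went against their labels, and Control 15 lacked lymphocyte genes. Xist, the RNA of the inactive X chromosome in females, reached 87.2 and 60.1 FPKM in the former pair, against at most 0.128 FPKM in the other 8, although all mice are labelled male. The summed level of 8 decidua genes was 11618.5 and 4221.8 FPKM in those libraries and at most 8.82 FPKM elsewhere. The summed level of 8 B cell genes was 2.13 to 5.11 FPKM in Control 15 and in that pair, and 881.2 to 1282.6 FPKM in the other 7. Control 15 and Control 16 also carried 19358 and 6725.5 FPKM of 8 adipocyte genes, against 47.8 to 293.7 FPKM in the other 8 libraries. Skeletal muscle genes, 8 in all, summed to 2485.5 FPKM in Control 15 and 9942.5 FPKM in Control 16. Their sum was 12.7 to 1405.4 FPKM in the AIA libraries, and 841.2 and 2620.8 FPKM in Acu 6 and Acu 28. So only 1 Control library, number 16, showed lymphocyte genes at a level near those of the AIA libraries. Libraries held 13269763 to 18926894 recovered reads, and AIA 10 had 15116 genes above 0 against 21224 to 24411 in the others. The vessel genes were therefore compared over all 10 libraries and over the 8 without the libraries labelled Control 17 and Acu 4. In bulk RNA, fewer cells of a type and less RNA per cell cannot be told apart.

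The promoters of 8 of the 10 genes are in RefSeq's table for GRCm38.p6. Those of Glycam1, Madcam1 and Chst4 are shown because these genes encode mucins of the high endothelial venule and an enzyme that sulphates them. Each run is the 250 bases before the start site, 5′ to 3′ on the gene's strand. Capitals mark matches to 4 motifs searched on both strands. These are the kappaB motif, bound by NF-kappaB proteins, AGGAAG of ETS factors, CAAGTG of NKX2 factors and TGGGAA of RBPJ.
Glycam1, chr15:103565082-103565331, minus strand: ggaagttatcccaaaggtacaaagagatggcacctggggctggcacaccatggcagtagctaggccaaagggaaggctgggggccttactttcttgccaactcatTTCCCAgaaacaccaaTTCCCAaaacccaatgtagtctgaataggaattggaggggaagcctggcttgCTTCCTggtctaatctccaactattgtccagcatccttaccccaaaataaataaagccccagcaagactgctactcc
Madcam1, chr10:79664309-79664558, plus strand: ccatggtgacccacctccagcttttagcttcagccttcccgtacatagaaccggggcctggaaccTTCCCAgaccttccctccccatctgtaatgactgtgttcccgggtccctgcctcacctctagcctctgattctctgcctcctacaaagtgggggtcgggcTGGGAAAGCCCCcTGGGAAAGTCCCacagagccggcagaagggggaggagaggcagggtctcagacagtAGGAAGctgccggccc
Chst4, chr8:110039335-110039584, minus strand: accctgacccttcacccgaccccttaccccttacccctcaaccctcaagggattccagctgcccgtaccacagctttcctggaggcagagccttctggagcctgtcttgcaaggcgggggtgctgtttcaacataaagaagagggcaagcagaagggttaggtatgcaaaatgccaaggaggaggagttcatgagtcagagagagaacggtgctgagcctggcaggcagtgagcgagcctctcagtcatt
The Madcam1 run holds a tandem pair of kappaB matches, GGAAAGCCCC and GGAAAGTCCC, both in the reverse orientation of the motif, which begin 83 and 70 bases before the start site. Each of them shares bases with a TGGGAA match. A kappaB match lies in 7.25% of the 32841 promoters of the same length in the table, an AGGAAG match in 29.5%, a CAAGTG match in 11.6% and a TGGGAA match in 21.6%. Glycam1 holds TGGGAA, read as TTCCCA, at 145 and 129 bases before the start, and AGGAAG, read as CTTCCT, at 77 bases before it. Chst4 holds none of the 4 motifs in this window. Its window lies inside the annotated gene span, chr8:110029153-110039740, and bases before that span were not searched. A match is a description of letters, and binding was not measured.

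Glycam1 (ENSMUSG00000022491, chr15:103562759-103565081 in mm10) encodes a secreted mucin-like protein of these venules. Its level was 122 FPKM in Control 16, 0.2 FPKM in Control 15 and 0 in the library labelled Control 17. AIA libraries 5, 10, 31 and 38 had 47.7, 55.4, 106 and 59.1 FPKM. Acu 6 and Acu 28 had 44.4 and 83.3 FPKM, and the library labelled Acu 4 had 0. Glycam1 was thus high in the 7 libraries with B cell genes and at most 0.2 FPKM in the 3 without them, and the highest value was in a Control library. The recovered reads were 4023 in Control 16, 7 in Control 15 and 0 in the libraries labelled Control 17 and Acu 4, where a count of 0 allows up to 0.0916 and 0.0883 FPKM (3 reads, counting error only). GlyCAM-1 is also a milk protein, and 6 genes of milk and mammary epithelium summed to at most 0.35 FPKM in any library. AIA minus Control was 3.62 on the log2(FPKM + 1) scale (SE 1.82, limma adjusted p = 0.244) over all libraries. It was 2.42 (SE 1.48, limma adjusted p = 0.312) without the libraries labelled Control 17 and Acu 4. Without Control 15 as well, AIA libraries lay below the remaining Control 16, and the difference was -0.93 (SE 0.56, limma adjusted p = 0.496). The direction of Glycam1 against Control therefore turned with the Control libraries used.

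Madcam1 (ENSMUSG00000020310, chr10:79664559-79668537) encodes the addressin bound by the integrin alpha4 beta7. Control 15, Control 16 and the library labelled Control 17 had 2.41, 6.4 and 3.72 FPKM. The 4 AIA libraries had 5.46, 7.56, 8.31 and 12.5 FPKM, Acu 6 and Acu 28 had 7.14 and 8.19 FPKM, and the library labelled Acu 4 had 0.0437 FPKM, from 1 read. Control and AIA overlapped, since Control 16 lay above AIA 5. Unlike Glycam1, Madcam1 stayed above 2 FPKM in Control 15 and in the library labelled Control 17, so the ratio of Glycam1 to Madcam1 was 0.0827 in Control 15 and 19.1 in Control 16. That ratio ran from 4.72 to 12.7 in AIA. AIA minus Control for Madcam1 was 0.89 (SE 0.70, limma adjusted p = 0.437) over all libraries and 0.86 (SE 0.41, limma adjusted p = 0.195) over the 8.

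Chst4 (ENSMUSG00000035930, chr8:110029153-110039740) encodes the sulphotransferase that adds sulphate to the sugars of these mucins. It was 2.47 FPKM in Control 16, listed at 0 in Control 15 and 0.0571 FPKM in the library labelled Control 17. AIA libraries 5, 10, 31 and 38 had 1.79, 1.66, 5.48 and 7.58 FPKM, so the AIA libraries lay both below and above Control 16. Acu 6 and Acu 28 had 4.19 and 5.13 FPKM, and the library labelled Acu 4 had 0.138 FPKM. Fut7 (ENSMUSG00000036587, chr2:25423267-25426374) encodes the fucosyltransferase of the same sugars, which lymphocytes and other leukocytes also use. Its levels were 0.103, 1.81 and 0.996 FPKM in Control, 2.84, 1.69, 3.27 and 5.37 FPKM in AIA, and 0.293, 4.42 and 5.06 FPKM in Acu, in the order of library number with 4 before 6 and 28. AIA 10 lay below Control 16, so these groups overlapped too. For Chst4 AIA minus Control was 1.55 (SE 0.71, limma adjusted p = 0.21) over all libraries and 1.28 (SE 0.63, limma adjusted p = 0.211) over the 8. For Fut7 it was 1.16 (SE 0.58, limma adjusted p = 0.238) and 1.22 (SE 0.45, limma adjusted p = 0.115).

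Vcam1 (ENSMUSG00000027962, chr3:116109949-116129688) encodes the adhesion molecule bound by the integrin alpha4 beta1. It is made by activated endothelium and also by reticular stroma, follicular dendritic cells and some macrophages. Its levels were 3.58 FPKM in Control 15, 5.27 FPKM in Control 16 and 1.09 FPKM in the library labelled Control 17. The 4 AIA libraries had 24.7, 26.0, 20.9 and 40.5 FPKM, a mean of 28.01 FPKM ± 8.59 (SD, n = 4). Acu 6 and Acu 28 had 29.5 and 25.3 FPKM, and the library labelled Acu 4 had 1.16 FPKM. Every AIA library lay above every Control library. Over all 10 libraries AIA minus Control was 2.85 (SE 0.83), with a limma adjusted p of 0.0998, which did not pass 0.05. Over the 8 libraries it was 2.40 (SE 0.34, limma adjusted p = 0.00501), which is 5.26-fold, and its 95% interval ran from 1.62 to 3.17. With Control 16 alone as Control it was 2.17 (SE 0.41, limma adjusted p = 0.049). Vcam1 was the single gene of the 10 that passed under both of these restricted fits.

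Vcam1 differed from the venule genes in that Control 16, the library with the most Glycam1, had little of it. The ratio of Vcam1 to Madcam1 was 0.823 in Control 16, between 2.52 and 4.52 in the AIA libraries, and 4.12 and 3.09 in Acu 6 and Acu 28. Genes of reticular and follicular stroma, 10 in all, summed to 149.02 FPKM in Control 15, 587.5 FPKM in Control 16 and between 234.9 and 572.8 FPKM in the AIA libraries. Of those 10, 2 passed as higher in AIA over the 8 libraries and none as lower. Among all genes 4.36% passed as higher and 9.06% as lower. Differences were positive for 8 of the 10, with a median of 1.25. That median was 0.37 with Control 16 as the only Control library. The part of stromal cells in the Vcam1 difference was not tested. Gm43109, a predicted gene on the opposite strand that overlaps Vcam1, had at most 2 reads in any library.

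**Figure D1:**
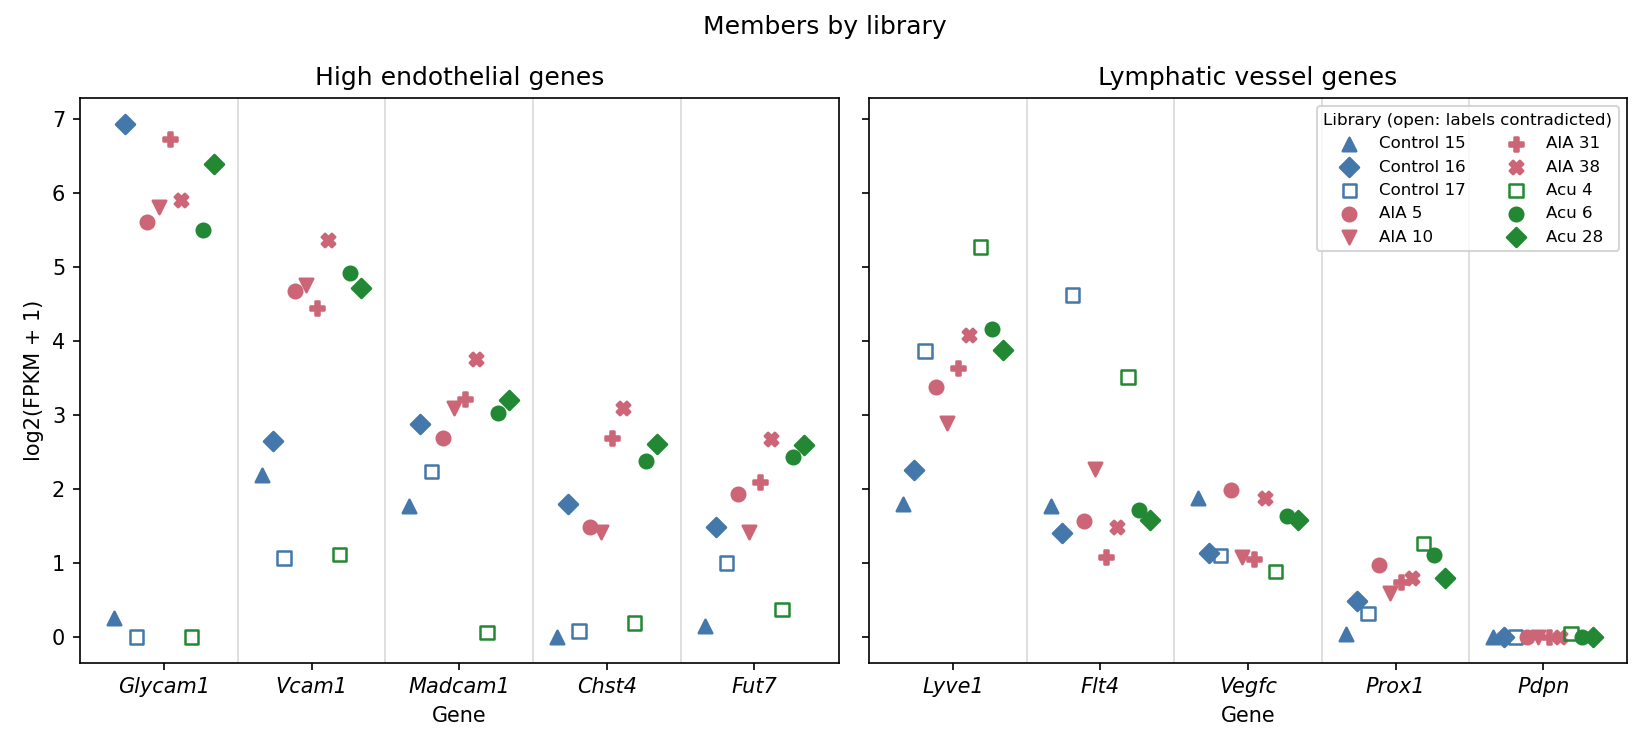
Level of each gene as log2(FPKM + 1), 1 point for each library, by group. Open points are the libraries labelled Control 17 and Acu 4. The 4 AIA points of Vcam1 (20.9 to 40.5 FPKM) sit above all Control points, whereas the highest Glycam1 point, 122 FPKM, is Control 16.

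Among lymphatic genes Lyve1 (ENSMUSG00000030787, chr7:110850607-110863239) encodes the hyaluronan receptor of lymphatic endothelium and of some tissue macrophages. Its levels were 2.48 and 3.77 FPKM in Control 15 and Control 16 and 13.6 FPKM in the library labelled Control 17. The AIA libraries 5, 10, 31 and 38 had 9.39, 6.41, 11.5 and 15.9 FPKM, a mean of 10.8 FPKM ± 4.0 (SD, n = 4). Acu 6 and Acu 28 had 17.03 and 13.7 FPKM, and the library labelled Acu 4 had the highest value, 37.7 FPKM. The 4 AIA libraries all lay above Control 15 and Control 16, and the library labelled Control 17 lay inside the AIA range. AIA minus Control was 0.86 (SE 0.55, limma adjusted p = 0.342) over all libraries and 1.47 (SE 0.37, limma adjusted p = 0.0364) over the 8, which is 2.77-fold. With Control 16 as the only Control library it was 1.24 (SE 0.47, limma adjusted p = 0.259), at an unadjusted p still under 0.05, so the call was not kept with 1 Control library. Beside this, 10 macrophage genes summed to 199.36 and 139.25 FPKM in those Control libraries and to between 278.74 and 480.83 FPKM in the AIA libraries. Their mean log2 level was 2.88 and 3.13 in the same Control libraries against 2.89 to 3.35 in AIA, so Control 16 lay inside the AIA range. Over the 8 libraries 1 of the 9 tested macrophage genes passed as higher in AIA and 1 as lower. Among all genes these shares were 4.36% and 9.06%. Of the 9 macrophage genes 4 had positive differences, and their median was -0.40. The part of macrophages in the Lyve1 difference was not tested.

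Prox1 (ENSMUSG00000010175, chr1:190118035-190170714), the regulator of lymphatic identity, was the lowest of the genes tested. Its levels were 0.029, 0.401 and 0.248 FPKM in Control 15, Control 16 and the library labelled Control 17, or 4, 52 and 32 reads. They were 0.959, 0.515, 0.671 and 0.743 FPKM in AIA and 1.4, 1.16 and 0.73 FPKM in the library labelled Acu 4, Acu 6 and Acu 28. All 7 libraries of mice labelled as given adjuvant lay above the 3 Control libraries, counting the libraries labelled Acu 4 and Control 17. Of all genes, 11.4% had every AIA library above every Control library, and 4.87% every Acu library. The nearest values, 0.515 FPKM in AIA 10 and 0.401 FPKM in Control 16, came from 49 and 52 reads. The fitted difference was nevertheless small on the log2(FPKM + 1) scale, which compresses low levels. AIA minus Control was 0.50 (SE 0.22, limma adjusted p = 0.195) over all libraries and 0.51 (SE 0.25, limma adjusted p = 0.2) over the 8. The overlapping genes Gm28172 and Prox1os on the opposite strand had 0 reads in every library.

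Flt4 (ENSMUSG00000020357, chr11:49609263-49652739), the VEGF-C receptor, was 2.42 and 1.64 FPKM in Control 15 and Control 16, and 1.96, 3.81, 1.11 and 1.81 FPKM in AIA. Acu 6 and Acu 28 had 2.3 and 1.99 FPKM. The libraries labelled Control 17 and Acu 4 stood apart with 23.7 and 10.5 FPKM. Flt4 is also used by some growing or fenestrated blood vessels. AIA minus Control was -1.0 (SE 0.77, limma adjusted p = 0.431) over all libraries and 0.01 (SE 0.35, limma adjusted p = 0.986) over the 8, with a 95% interval from -0.79 to 0.82. Vegfc (ENSMUSG00000031520, chr8:54077606-54187096), its ligand, was 2.68, 1.19 and 1.14 FPKM in Control, 2.95, 1.12, 1.08 and 2.69 FPKM in AIA, and 0.846, 2.12 and 1.99 FPKM in Acu. High and low values occurred in both Control and AIA. AIA minus Control for Vegfc was 0.13 (SE 0.37, limma adjusted p = 0.841) over all libraries and 0.00 over the 8, with a 95% interval from -0.87 to 0.86. The ratio of Lyve1 to Flt4 was 1.03 and 2.29 in Control 15 and 16 and between 1.68 and 10.3 in the AIA libraries, which overlap.

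Pdpn (ENSMUSG00000028583, chr4:143267431-143299564), which encodes podoplanin of lymphatic endothelium and of fibroblastic reticular cells, was listed at 0 in 9 libraries and had 1 read in the library labelled Acu 4. It did not reach the level needed for testing. An exact 0 in such a table can be a failed estimate. Nkx2-3, a transcription factor needed for Madcam1 expression in gut-associated tissue, was listed at 0 in all 10 libraries. Tnnc2, a main gene of fast muscle, was at most 0.0809 FPKM, although 8 muscle genes summed to 9942.5 FPKM in Control 16. Why these genes are at 0 was not tested.

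Compared per kilobase of gene, the AIA libraries had the order Glycam1 (67.0 FPKM ± 26.2, SD, n = 4), Vcam1, Lyve1, Madcam1 (8.46 ± 2.97), Chst4 (4.13 ± 2.9), Fut7 (3.29 ± 1.54), Flt4 (2.18 ± 1.16), Vegfc (1.96 ± 1.0) and Prox1 (0.722 ± 0.184). Glycam1 lay above Vcam1, Vcam1 above Lyve1, and Vegfc above Prox1 without overlap of their ranges. The ranges of neighbours from Lyve1 down to Vegfc overlapped. Within libraries, Madcam1 was above Chst4 in 4 of 4, Lyve1 above Madcam1 and Fut7 above Flt4 in 3 of 4, and the other neighbours in 2 of 4. In Control 16 Glycam1 was followed by Madcam1 at 6.4 FPKM, and Vcam1 held the third place rather than the second.

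Of the 10 genes, 9 were tested. With all 10 libraries none of the 9 passed limma's adjusted p of 0.05 in AIA minus Control, where 0.0235% of 17010 genes did. At an unadjusted p under 0.05 there were 2, Vcam1 and Prox1, where 25% of all genes were. voom on the recovered reads gave 0 calls and 3 at that level, where 23.5% of all genes were. The same 2 genes had all AIA libraries above all Control libraries, a pattern that 11.4% of genes showed in this direction. In the fit of 8 libraries Vcam1 and Lyve1 passed, 2 of 9, where 4.36% of 16067 genes passed as higher. These and Prox1 had all AIA libraries above both Control libraries, which 18% of genes showed. The median difference of the 9 genes was 1.22, and that of all genes tested was 0.00. Without Control 15 as well, which leaves 1 Control library, these medians were 0.37 and 0.004.

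**Figure D2:**
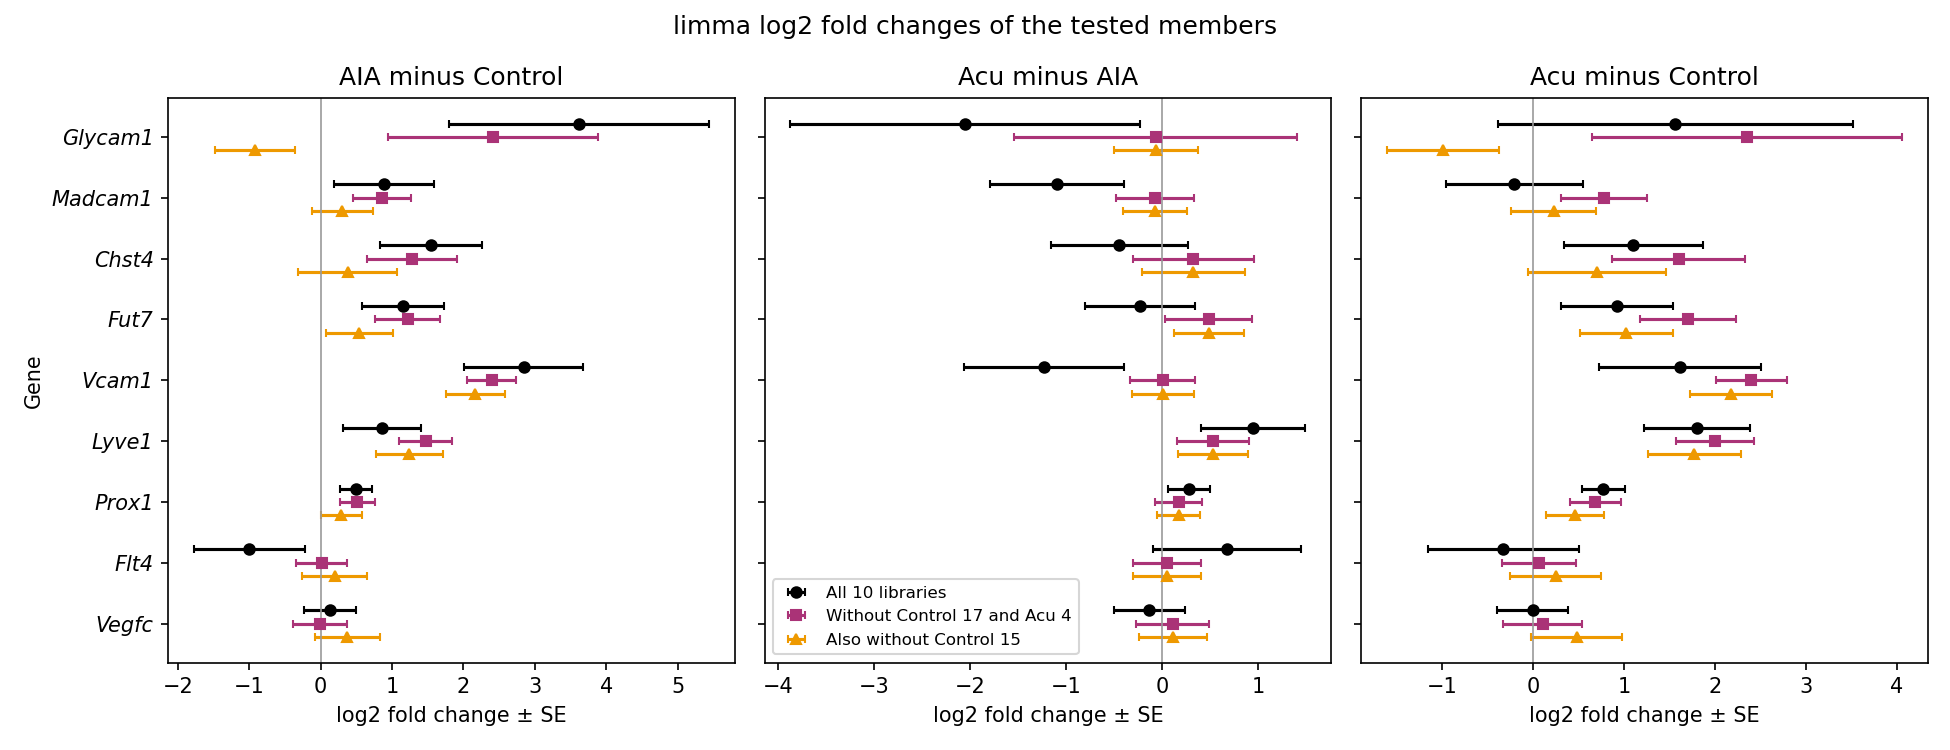
Difference of each gene on the log2(FPKM + 1) scale in each comparison, as points with bars of ± SE from limma. Fits are for all 10 libraries, the 8 without the libraries labelled Control 17 and Acu 4, and 7 without Control 15 too. Vcam1 keeps its bar above 0 in AIA minus Control under all of them, and Glycam1 changes sign.

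In acupuncture minus adjuvant alone, none of the 9 genes passed limma's adjusted p over all 10 libraries, where 0% of genes did. None had an unadjusted p under 0.05, by limma or by voom, where 4.7% and 4.06% of all genes did. The differences over all 10 were -2.05 for Glycam1, -1.10 for Madcam1, -0.45 for Chst4, -0.23 for Fut7, -1.23 for Vcam1, 0.95 for Lyve1, 0.28 for Prox1, 0.67 for Flt4 and -0.13 for Vegfc. None passed by limma over the 8 libraries either, at the adjusted level (0% of genes) or the unadjusted one (2.98%). There the differences were 0.01 for Vcam1, with a 95% interval from -0.77 to 0.78, and 0.53 for Lyve1, from -0.32 to 1.38. They were -0.08 for Madcam1 (-1.01 to 0.85), 0.32 for Chst4 (-1.12 to 1.76), 0.49 for Fut7 (-0.55 to 1.52) and 0.17 for Prox1 (-0.39 to 0.74). For Glycam1 the interval from -3.44 to 3.31 was too wide to separate a large negative from a large positive difference. Acu 6 and Acu 28 lay inside the AIA range for Chst4, Fut7, Vcam1 and Madcam1. With all 10 libraries the 5 high endothelial genes all had negative differences, and the library labelled Acu 4 supplied the lowest Acu value of each. A p that misses the threshold does not show that adjuvant with and without acupuncture gave the same level.

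For Acu minus Control, which shares the Control libraries with AIA minus Control, none of the 9 genes passed over all 10 libraries (background 0%). Limma gave 2 at an unadjusted p under 0.05, Lyve1 and Prox1, where 7.5% of all genes were, and voom gave 0 calls and 2 at that level, where 6.71% were. Both genes had every Acu library above every Control library, which 4.87% of genes showed in this direction. In the fit of 8 libraries Vcam1 (2.40, SE 0.39, limma adjusted p = 0.0203) and Lyve1 (2.0, SE 0.43, limma adjusted p = 0.0406) passed, where 0.878% of genes passed as higher. Both Acu libraries lay above both Control libraries for 6 of the 9 genes, against 32.4% of all genes. Without Control 15 none passed by limma's adjusted p, where 0% of genes did, and 2 had an unadjusted p under 0.05, as 12.3% of genes did. The Vcam1 difference was then 2.17 (SE 0.45, limma adjusted p = 0.124).

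The other genes of high endothelial venules did not follow Vcam1. With all 10 libraries none of 21 tested passed in AIA minus Control, and 6 had an unadjusted p under 0.05 (limma), near the 25% of all genes that did. In the fit of 8 libraries 0 passed as higher and 3 as lower, where 9.06% of all genes passed as lower. With Control 15 left out as well none of the 21 passed, and 3 had an unadjusted p under 0.05, near the 15.7% of all genes. The 3 that passed as lower over the 8 libraries were Emcn, Podxl and Cd34, which encode sialomucins of blood vessel endothelium. Emcn was 9.62 and 6.74 FPKM in Control 15 and 16 and 2.1 to 2.78 FPKM in AIA (-1.44, SE 0.26, limma adjusted p = 0.0116). Podxl was 31.03 and 10.5 FPKM in Control 15 and 16 and 1.29 to 3.17 FPKM in AIA (-2.63, SE 0.46, limma adjusted p = 0.0106). Cd34 was named after its values were seen, at -1.16 (SE 0.32, limma adjusted p = 0.0475). Over all 10 libraries Emcn was -1.60, Podxl -2.46 and Cd34 -1.82 (limma adjusted p = 0.0639, 0.0738 and 0.146). Over the 8 libraries partners in making these sugars gave 0.67 for the sulphotransferase Chst2 (adjusted p = 0.214 by limma), 0.96 for the branching enzyme Gcnt1 (adjusted p = 0.255 by limma) and -1.28 for the sialyltransferase St3gal6 (adjusted p = 0.064 by limma). Icam1, a ligand of the integrin LFA-1, gave 0.84 (SE 1.05), and the lymphotoxin receptor Ltbr, which maintains these venules, gave -0.89 (SE 0.43), neither of which passed. In Acu minus Control over the 8 libraries Emcn (-1.87, limma adjusted p = 0.0197) and Podxl (-2.50, limma adjusted p = 0.0404) were the 2 of 21 that passed, both lower, as 3.47% of all genes did. None of the 21 passed there over all 10 libraries or with Control 15 left out too, and 4 had an unadjusted p under 0.05 in each (limma), where 7.5% and 12.3% of all genes had. Fut4, another fucosyltransferase, gave 1.3 there (limma adjusted p = 0.0895).

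General endothelial genes were lower in AIA than in Control over the 8 libraries. Without the libraries labelled Control 17 and Acu 4, 10 of 12 pan-endothelial genes passed as lower in AIA minus Control and none as higher, with a median of -2.23, where 9.06% of all genes passed as lower. With Control 15 left out too, which leaves 1 Control library, the median of the 12 was -1.77, against 0.004 for all genes. In the fit of all libraries none of the 12 passed, all 12 had an unadjusted p under 0.05 (limma, 25% of all genes), and 11 had all AIA libraries below all Control libraries, a pattern that 13.8% of genes showed. Tie1 and Tek, receptor tyrosine kinase genes, and Egfl7, which encodes a secreted endothelial factor, gave -2.48, -2.65 and -2.15 over the 8 libraries and -2.67, -2.46 and -1.92 over all 10 (limma adjusted p = 0.0546, 0.0553 and 0.0546). Cdh5, of the endothelial junction, gave -3.06 and Kdr, the main VEGF receptor, -2.31, while Pecam1 gave -0.68 (limma adjusted p = 0.177) and did not pass. The 12 genes summed to 718.3 and 370.4 FPKM in Control 15 and Control 16, and to between 112.95 and 156.91 FPKM in the AIA libraries. The adipocyte genes moved the same way, with 7 of 7 tested passing as lower over the 8 libraries and a median of -6.69. All 7 tested skeletal muscle genes also had every AIA library below Control 15 and Control 16, with 1 passing and a median of -4.66. The part of fat, muscle and their vessels in the endothelial difference was not tested. In Acu minus Control 5 of the 12 passed as lower over the 8 libraries, where 3.47% of all genes did, with Robo4, Tek and Egfl7 at -2.61, -2.53 and -2.04. None of the 12 passed there over all 10 libraries, where 10 had an unadjusted p under 0.05 (limma, 7.5% of all genes), or with Control 15 left out too, where 6 had (12.3% of all genes).

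**Figure D3:**
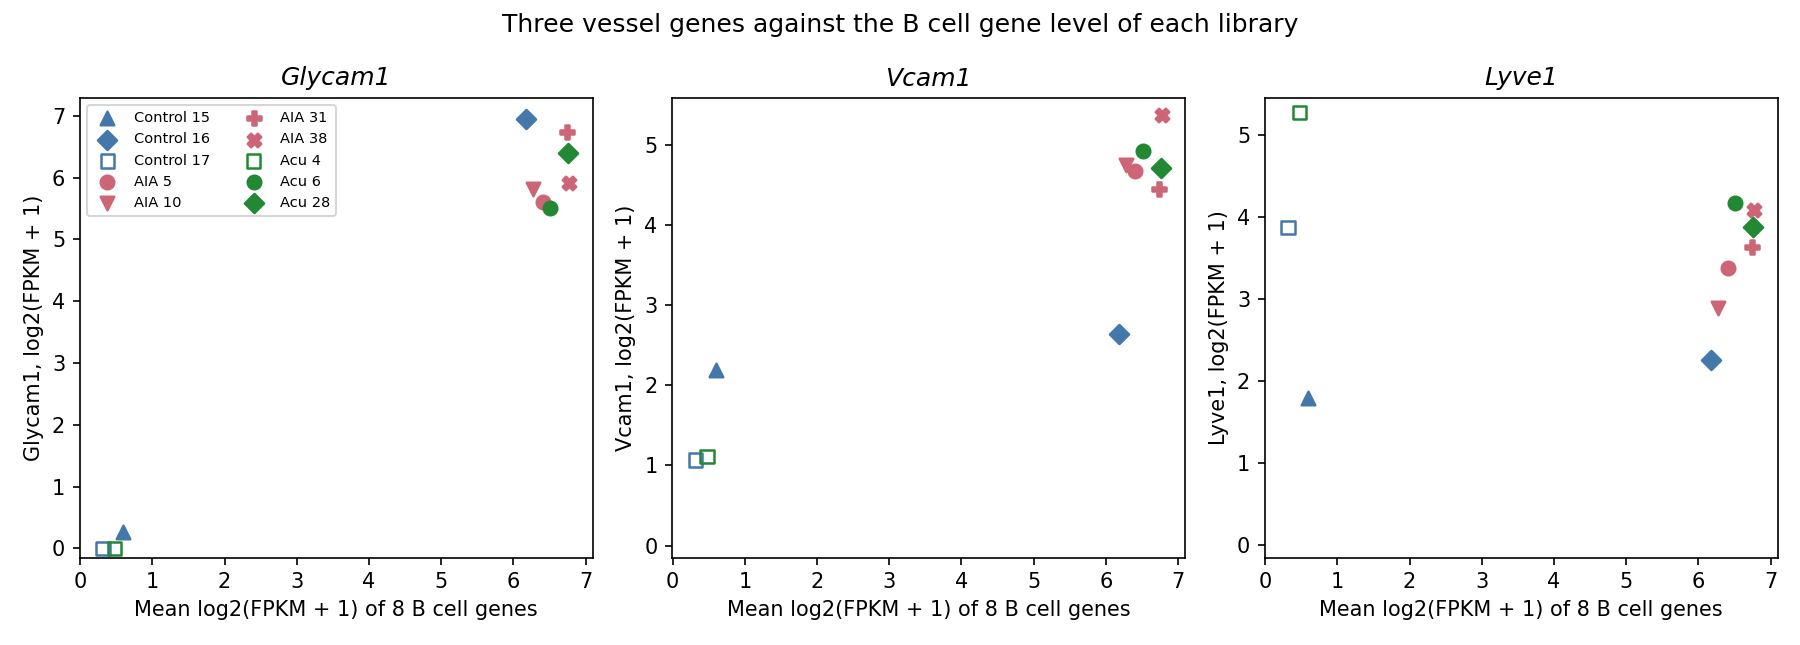
Levels of vessel genes in each library set against the mean log2(FPKM + 1) of 8 B cell genes. The 3 libraries with a B cell mean of at most 0.599 hold at most 0.2 FPKM of Glycam1, and the 7 with a mean of at least 6.18 hold 44.4 FPKM or more.

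Lymphatic genes beyond the 5 followed here did not move together. With all 10 libraries none of 19 tested passed in AIA minus Control, and 6 had an unadjusted p under 0.05 (limma), where 25% of all genes did. In the fit of 8 libraries 0 of 18 passed as higher and 3 as lower, with a median of 0.01, where 9.06% of all genes passed as lower. With Control 15 left out too none of the 18 passed, and 5 had an unadjusted p under 0.05, where 15.7% of all genes did. Those 3 were Gata2 (-2.03, limma adjusted p = 0.00717), a transcription factor of lymphatic valves and of mast cells and progenitors, the VEGFR-3 ligand Vegfd (-2.28, limma adjusted p = 0.0235) and Gja1, a gap junction gene named after its values were seen (-1.79, limma adjusted p = 0.0246). Over all 10 libraries they were -2.94, -3.16 and -3.61 (limma adjusted p = 0.109, 0.166 and 0.186). Over the 8 libraries, of more specific lymphatic genes, Mmrn1 gave 0.68 (SE 0.27, limma adjusted p = 0.129) and Reln 0.75 (SE 0.35, limma adjusted p = 0.185). Mmrn1 was 0.0622 and 0.176 FPKM in Control 15 and 16 and 0.441 to 1.35 FPKM in AIA, without overlap, while the library labelled Acu 4 had 11.3 FPKM. Sox18, a regulator upstream of Prox1, gave -2.25 (SE 0.81, limma adjusted p = 0.104). Ackr4, a scavenging chemokine receptor of the subcapsular sinus, was at most 0.305 FPKM outside the libraries labelled Control 17 and Acu 4, where it was 25.6 and 1.65 FPKM. In Acu minus Control Itga9 gave 1.29 (limma adjusted p = 0.127) and Ackr2 0.95 (limma adjusted p = 0.487) over the 8 libraries. Gata2 passed there as lower, 1 of 18, where 3.47% of all genes passed as lower. None of the list passed over all 10 libraries (limma, 1 at an unadjusted p under 0.05, 7.5% of all genes). With Control 15 left out too, which leaves 1 Control library, the median of the list was 0.12, against 0.045 for all genes.

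Ccl21a, the chemokine that draws CCR7-bearing cells across venules and lymphatics, stood in the table as more than one near-identical copy, and its levels are uncertain. The copy on chromosome 4 was 0, 0.967 and 0 FPKM in Control and 12.5, 62.3, 2.27 and 0.947 FPKM in AIA. A copy on an unplaced scaffold was 0, 67.3 and 2.59 FPKM in Control and 258, 92.4, 85.4 and 79.9 FPKM in AIA. The copies thus differed in which AIA library was highest, AIA 10 or AIA 5.

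Lymphocyte receptors for these vessels were taken as a list of 12. Itgal, a chain of LFA-1, was 1.0, 14.3 and 7.69 FPKM in Control, 28.7, 41.8, 30.1 and 38.1 FPKM in AIA, and 3.66, 45.0 and 28 FPKM in Acu. It was thus lowest in the 3 libraries without B cell genes, and Control 16 lay below every AIA library. Over the 8 libraries 2 of 12 passed in AIA minus Control, both higher, where 4.36% of all genes passed as higher. Among them was Itgal (2.67, SE 0.70, limma adjusted p = 0.0408), which was 2.45 over all 10 libraries (limma adjusted p = 0.124). Itga4, which pairs with Itgb7 to bind MAdCAM-1 and with Itgb1 to bind VCAM-1, gave 1.70 (SE 0.50, limma adjusted p = 0.0599), and Itgb7 gave 2.57 (SE 1.03, limma adjusted p = 0.135). With Control 16 alone none of the 12 passed by limma, 2 had an unadjusted p under 0.05 (15.7% of all genes), and their median was 0.63. In the fit of all libraries none of the 12 passed by limma, with 7 at an unadjusted p under 0.05, where 25% of all genes were.

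**Figure D4:**
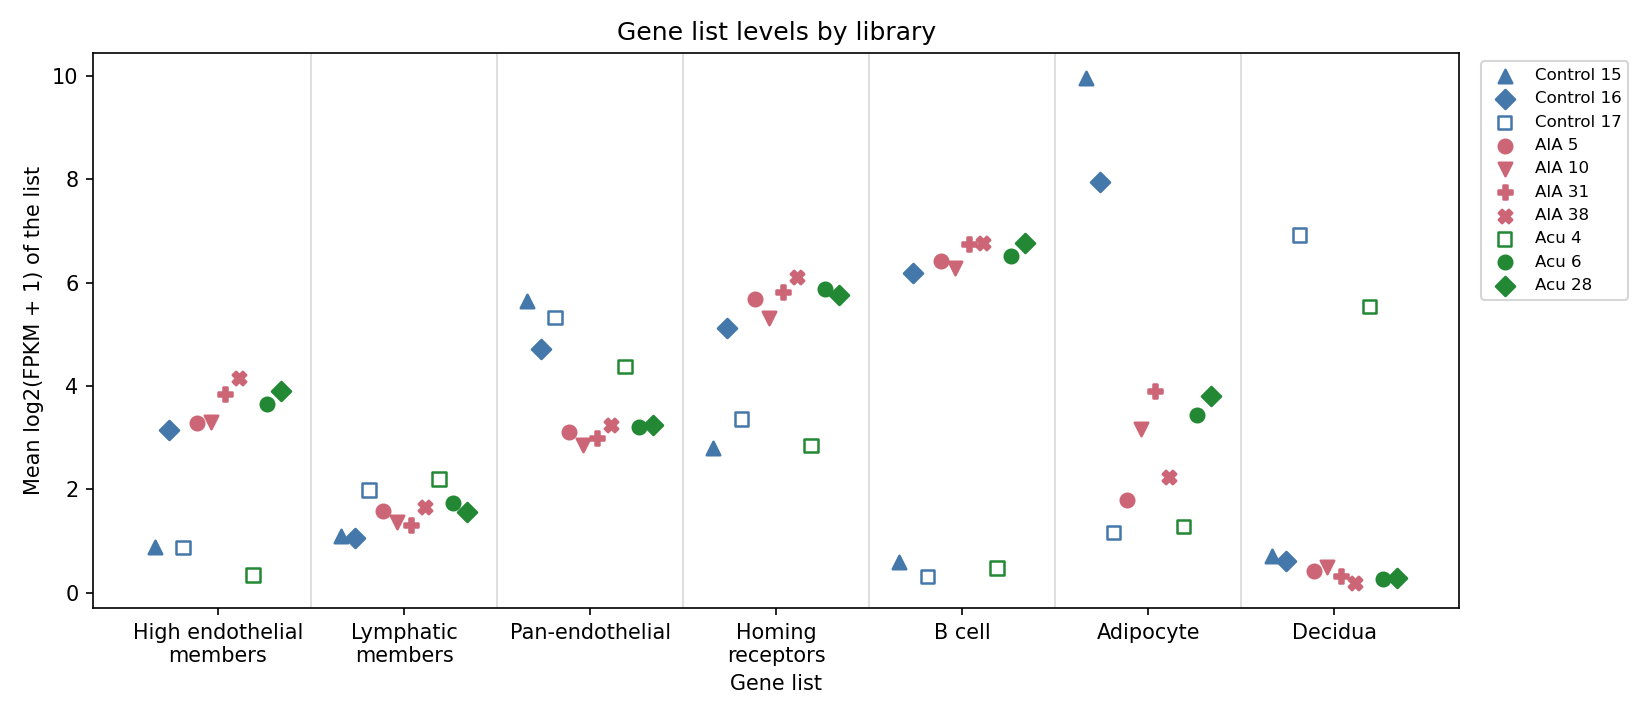
Mean log2(FPKM + 1) of 7 gene lists in each library, for the high endothelial genes, the lymphatic genes, pan-endothelial genes, homing receptors, B cells, adipocytes and decidua. The libraries labelled Control 17 and Acu 4 carry decidua genes (means of 6.92 and 5.54) and all Control libraries have pan-endothelial means of at least 4.72, against at most 3.25 in the AIA libraries.

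The lists gave no calls between adjuvant with and without acupuncture. With all 10 libraries none of the other high endothelial, other lymphatic, homing receptor or pan-endothelial genes passed in Acu minus AIA. At an unadjusted p under 0.05 limma gave 1, Tie1, at 0.99 (SE 0.43). None passed over the 8 libraries either, where Tie1 was 0.67 (SE 0.44), Kdr 0.44 (SE 0.47) and Cdh5 0.59 (SE 0.75). Spns2, the sphingosine-1-phosphate exporter of lymphatic endothelium, was 0.46 (SE 0.32), the fucose pathway enzyme Gmds 0.33 (SE 0.38) and Parm1 0.54 (SE 0.58). Cldn11 was 0.27 (SE 0.36) and Klf2, a regulator of egress receptors in lymphocytes, was -0.36 (SE 0.54). The integrin chain Itgb1 was 0.48 (SE 0.54).

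The genes whose pattern over the 10 libraries was nearest to that of Glycam1 included H2-Ob and Cd22, both B cell genes. Their root mean square distances from Glycam1, on centred log2 values and among 13371 genes, were 0.56 and 0.58, against a spread of Glycam1 itself of 2.80. The nearest genes to Lyve1 were Galns, a lysosomal sulphatase, Actn1, an actin cross-linker, and Ahcy, an enzyme of methionine metabolism, at 0.34, 0.36 and 0.37, against a spread of 0.95. None of these 3 is a lymphatic marker. The libraries share depth and tissue makeup, so nearness is only a description.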

How the data were processed

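RNA from 10 popliteal lymph node libraries was extracted with Trizol and prepared with the NEBNext Ultra kit, according to the labels. The submitters' processing notes name DESeq2 1.16.1, featureCounts 1.5.0-p3, HISAT2 2.0.5, StringTie 1.3.3b and build mm10, without roles. Whether counting used strand was not given in the sources used here. The values that the authors deposited are FPKM (fragments per kilobase and per 1e+06 of library size), with gene lengths, for 54987 genes. FPKM times length was a whole multiple of a step in each library (tolerance 0.01), which gave back the reads. The library size behind the FPKM was not the recovered reads. It was 20275688 against 16391068 reads in Acu 6, and 16438774 against 18926894 reads in Control 15. Scaling by the median of ratios left the values as deposited, with a factor of 1.0 in every library, so they already stood on that scale.

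Testing covered the 17010 genes that reached an FPKM of 0.5 in 3 or more libraries. limma 3.58.1 (R 4.3.3) was fitted to log2(FPKM + 1) of all 10 libraries with a mean-variance trend, with Benjamini-Hochberg adjustment and a threshold of 0.05. Differences are on that scale, which understates changes of low genes. SE is limma's standard error. The fit was tested on simulated data. Python 3.11.15 with pandas 2.3.3 and matplotlib 3.10.9 was used for tables and figures.

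The genes and gene lists were chosen with earlier results of these data known. All 10 vessel genes are named, with the 3 genes of smallest p in each list of other high endothelial, other lymphatic, homing receptor and pan-endothelial genes, a set of direct partners, and the 3 genes nearest to Glycam1 and to Lyve1. The results of some genes that this takes in are not reported here. Alternatives were other libraries left out, a pseudocount of 0.1, other filters, other scalings, array weights and voom.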

Additional observations from a re-analysis of the deposited data

How the results depend on the processing

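No paired analysis was possible because the 3 groups share no replicate number. A pseudocount of 0.1, no filter and a filter at an FPKM of 1 kept every direction and left 0 of the vessel genes past the threshold in each comparison. The FPKM as deposited are the same values again, since the scaling factor was 1.0 in every library, so that setting tested nothing. The stricter filter gave no value for Prox1. voom on the recovered reads also gave 0 and turned only Vegfc in Acu minus Control (0.021). The cause of the changes below was not tested.

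Without the libraries labelled Control 17 and Acu 4, 2 genes passed in AIA minus Control and 2 in Acu minus Control, where all libraries gave 0 and 0. Among all genes 13.42% and 4.344% passed without those libraries. Differences that turned sign in AIA minus Control were Flt4 (0.013) and Vegfc (-0.004). In Acu minus AIA they were Vcam1 (0.006), Chst4 (0.32), Fut7 (0.49) and Vegfc (0.11), and in Acu minus Control Madcam1 (0.78), Flt4 (0.064) and Vegfc (0.11). With AIA 10 left out as well, a setting chosen after seeing the data, 2 and 2 genes passed. Of all genes, 21.45% and 13.23% passed there. Chst4 (0.07), Fut7 (0.28), Madcam1 (0.78), Flt4 (0.064) and Vegfc (0.11) then turned in the last 2 comparisons. With Control 15 left out instead, Control was a lone sample assumed to vary like the other groups. Then 1 gene passed in AIA minus Control and 0 in Acu minus Control. Glycam1 (-0.93) and Flt4 (0.20) turned in the former, and Glycam1 (-0.99), Madcam1 (0.23), Flt4 (0.25) and Vegfc (0.48) in the latter. Vcam1 (0.006), Chst4 (0.32), Fut7 (0.49) and Vegfc (0.11) turned in Acu minus AIA.

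Array weights gave 3 genes in AIA minus Control and in Acu minus Control (Fut7, Lyve1 and Vcam1), where 19.51% and 12.15% of all genes passed. These weights gave 0 in Acu minus AIA, where 0.5761% of all genes passed. They turned Vegfc in AIA minus Control (-0.20), Vcam1 (0.13), Fut7 (0.30) and Vegfc (0.29) in Acu minus AIA, and Madcam1 (0.77) and Vegfc (0.086) in Acu minus Control. Relative to the pan-endothelial list 8 and 6 genes passed against Control, but so did 83.3% and 66.2% of all genes. The list subtracted is itself lower in AIA and Acu than in Control. Of all genes 96.7% were then higher in AIA, against 46.5% otherwise. That setting turned Flt4 (1.18) in AIA minus Control, Prox1 (-0.28) in Acu minus AIA, and Madcam1 (1.42), Flt4 (1.298) and Vegfc (1.62) in Acu minus Control.

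Leaving out 1 library in turn gave 0 to 1 genes in each comparison with Control and 0 in Acu minus AIA. Without the library labelled Acu 4 it was Vcam1 in both, where 10.38% (AIA minus Control) and 0.5152% (Acu minus Control) of all genes passed. Without the library labelled Control 17 it was Lyve1 in Acu minus Control, where 1.828% of all genes passed. The ranges that crossed 0 in AIA minus Control were -1.60 to 0.013 for Flt4 and -0.03 to 0.39 for Vegfc. In Acu minus AIA they were -0.89 to 0.32 for Chst4, -0.63 to 0.49 for Fut7, -1.90 to 0.006 for Vcam1 and -0.28 to 0.11 for Vegfc. In Acu minus Control they were -0.95 to 0.69 for Flt4, -0.76 to 0.81 for Madcam1 and -0.14 to 0.25 for Vegfc. Depth limits the low values: at a count of 0, Glycam1 could reach 0.0916 FPKM in the library labelled Control 17.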
